A study of Mus musculus with 11 samples.

Results

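The genes described here are 49 ribosome biogenesis and nucleolar genes measured by RNA sequencing in a mouse model of B cell acute lymphoblastic leukemia (B-ALL). They were chosen by symbol from a list of 50 genes for RNA polymerase I transcription, ribosomal RNA (rRNA) processing and nucleolar proteins. The tables list 24319 genes, 49 of the 50 symbols matched, and Noc2l was not analysed here. All mice were C57BL/6J. Leukemic cells came from the lymph nodes of mice numbered 686, 713 and 760, all Ebf1+/- Pax5+/- with overt B-ALL, and each mouse gave 2 libraries. The dHet proB cells, Ebf1+/- Pax5+/- Rag2-/-, were c-Kit+ fetal liver cells kept on OP9 stromal feeders with IL-7, Flt3L and SCF, and gave 3 libraries. The wt proB cells, Ebf1+/+ Pax5+/+ Rag2+/+, were the FrBC fraction sorted from bone marrow and gave 2 libraries. Leukemia, tissue, culture, the Ebf1 and Pax5 genotype and the Rag2 genotype therefore changed together between the groups and cannot be told apart: B-ALL and dHet proB cells share Ebf1+/- Pax5+/- but differ in the rest, and both proB groups differ in every one of these but leukemia. The sources used here do not give the ages of the mice, nor whether each proB library is from its own animal or culture, so the spread between proB libraries, and the p-values that rest on it, may be technical.

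Ribosomes are assembled in the nucleolus. RNA polymerase I transcribes the precursor rRNA, small nucleolar ribonucleoproteins (snoRNPs) modify and guide the cutting of it, and separate sets of assembly factors carry the small and the large subunit toward the cytoplasm. Many of these genes are classic targets of the transcription factor MYC, and B cell progenitors use the pathway during their bursts of growth and division.

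Levels are the deposited FPKM values, in which the fragments of a gene are divided by its transcript length and the library's mapped fragments. FPKM sets each gene against the rest of its library, so total RNA per cell was not measured. In bulk RNA, fewer cells of a type and less RNA per cell cannot be told apart. Differences are on the log2(FPKM + 1) scale, with the mouse as the replicate of the leukemias, and a call is an adjusted p under 0.05 from limma over the 11110 genes tested. All 49 genes passed the filter on low values.

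The ribosome biogenesis genes stood higher in leukemic cells than in either proB population. Their summed FPKM made up 1.11% and 1.08% of all FPKM for mouse 686, 0.744% and 0.734% for mouse 713, and 0.926% and 0.939% for mouse 760. The share was 0.303%, 0.435% and 0.544% in dHet proB libraries 1, 2 and 3, and 0.472% and 0.441% in wt proB libraries 1 and 2. Every leukemic library lay above every proB library, and the dHet proB libraries were spread on both sides of the wt proB libraries. For 42 of the 49 genes, all 6 B-ALL libraries exceeded all 5 proB libraries, a pattern seen for 13% of all genes tested.

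**Figure D1:**
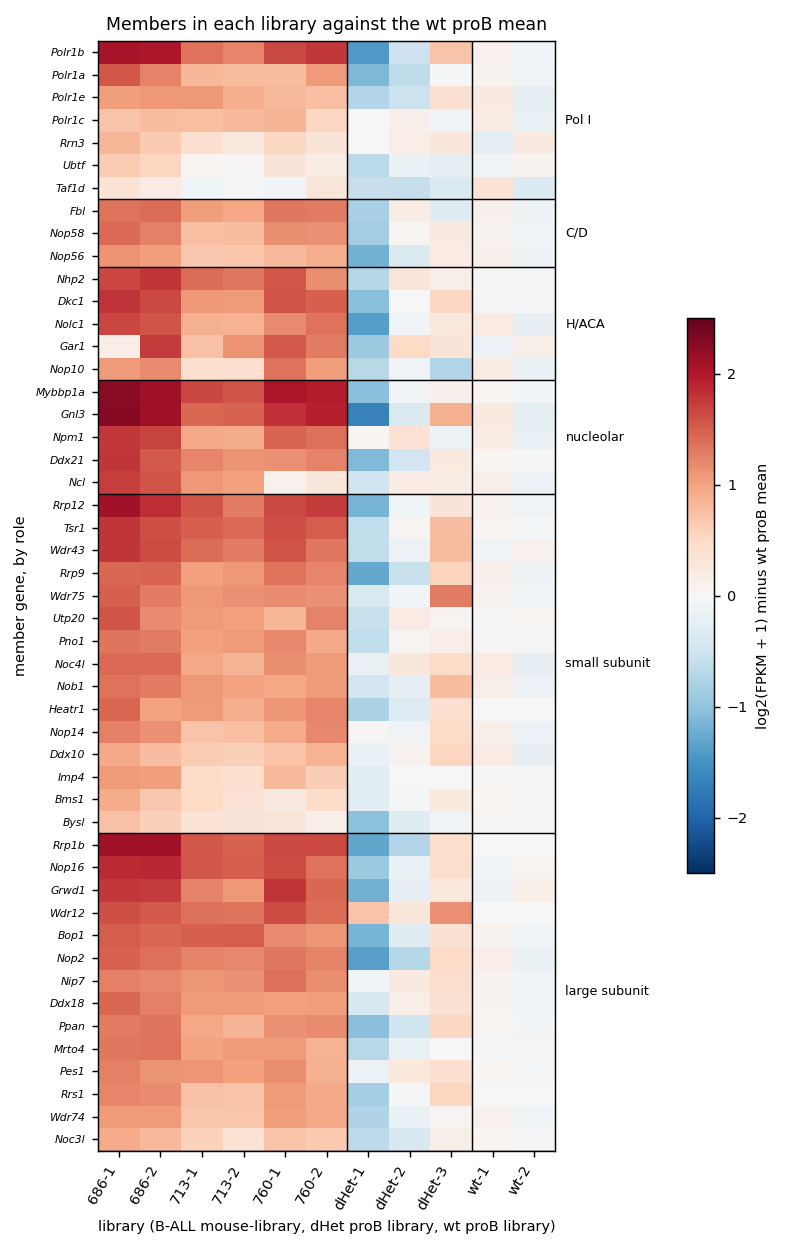
Each row is a ribosome biogenesis gene, grouped by role, and each column a library; the color is log2(FPKM + 1) minus the mean of the 2 wt proB libraries, from blue (lower) to red (higher). The 6 B-ALL columns are red for nearly every gene, with a median between 1.02 and 1.42, while the medians of dHet proB libraries 1, 2 and 3 are -0.70, -0.08 and 0.32.

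Against wt proB cells, 26 of the 49 genes passed the test as higher in B-ALL and none as lower, where 8.15% of all genes tested were called higher and 10% lower. The median difference of the 49 was 1.14 on the log2 scale, with a range from 0.11 to 1.94, beside a median of -0.02 over all genes tested. The B-ALL and wt proB libraries did not overlap for 46 of the 49, and 23.5% of all genes were higher without overlap. Against dHet proB cells, 42 of the 49 passed as higher and none as lower, where 14.5% of all genes were called higher and 11% lower. The median here was 1.27, with a range from 0.35 to 2.30, beside 0.04 over all genes. Libraries did not overlap for 44 of the 49, against 19.5% of all genes. Both comparisons use the same 3 leukemias and come from one fit. In all, 26 genes were called in both, 16 against dHet proB only, and 7 in neither (Taf1d, Rrn3, Gar1, Ncl, Wdr75, Bms1 and Ddx10). The difference between the comparisons is the dHet proB against wt proB comparison given further on.

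**Figure D2:**
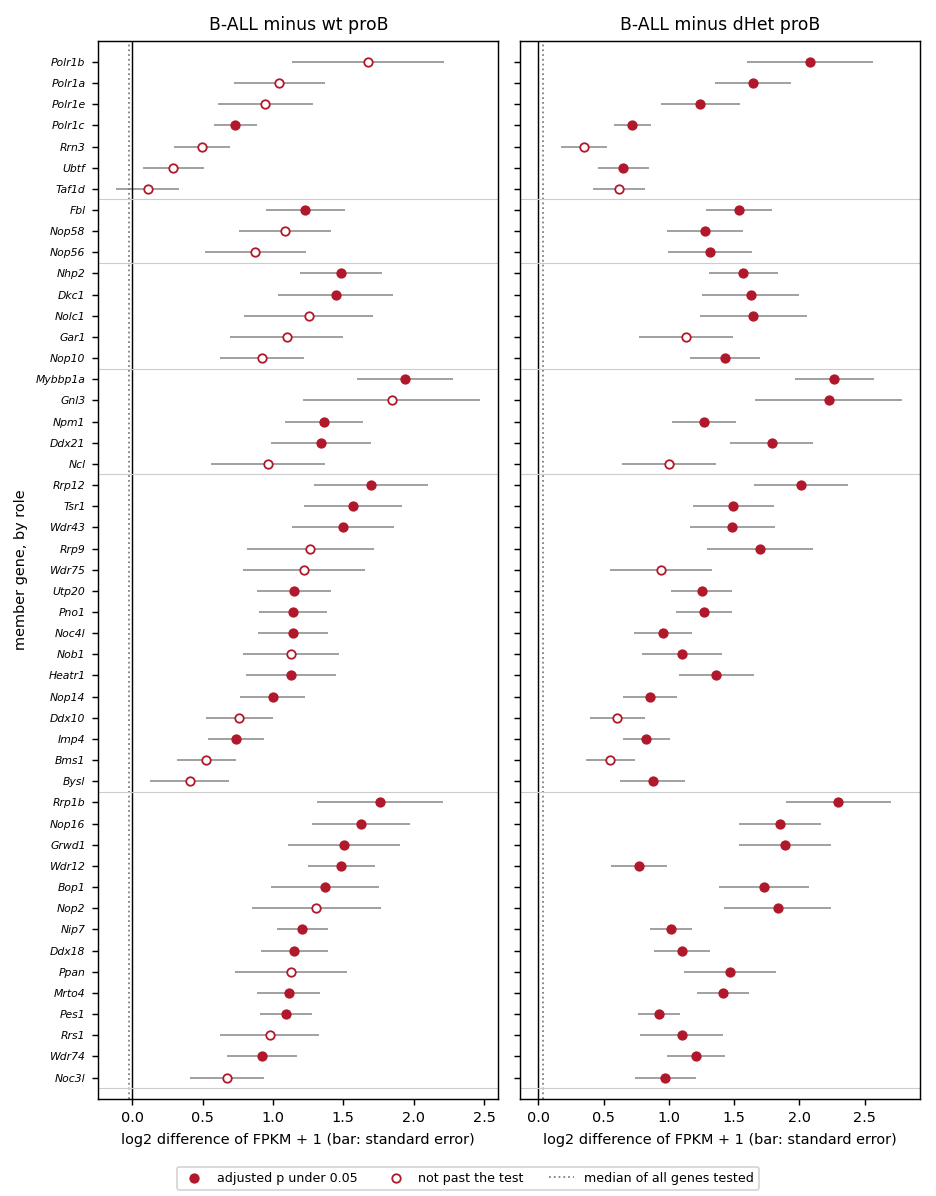
Each row is a ribosome biogenesis gene in order of role, with its log2 difference of FPKM + 1 for B-ALL minus wt proB at left and B-ALL minus dHet proB at right; bars are standard errors, filled points have an adjusted p under 0.05, and dotted lines mark the median of all genes tested. All 49 points lie above 0 on both sides, with 26 filled at left and 42 at right.

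The count against wt proB rested on each of the 2 wt libraries. It was 1 (Nip7) without wt proB library 1, and 0 by limma without wt proB library 2, where 27 genes were higher at an unadjusted p under 0.05. It was 7 without mouse 686 and 15 without mouse 760, and a fit of these groups alone called 40 (9.68% of all genes called higher). The median stayed between 1.05 and 1.20 in all these leave-outs. Against dHet proB the count ran from 23 without mouse 686 to 44 without dHet proB library 3. Of all genes, 810 of 10990 and 1475 of 11025 were called higher in these fits.

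The 7 genes for RNA polymerase I transcription had the smallest medians of the 6 role groups. Against wt proB 1 of 7 was called higher, with a median of 0.73, and against dHet proB 5 of 7, with a median of 0.72. Polr1c, a subunit that RNA polymerase I shares with RNA polymerase III, measured 66.1 and 69.2 FPKM in mouse 686, 67.8 and 70.6 in mouse 713 and, for mouse 760, 73.0 and 58.1. It measured 40.3, 43.8 and 37.5 in dHet proB, with 45.5 and 35.4 in wt proB. All leukemic libraries were thus above all proB libraries, with little spread among the mice. The difference was 0.73 ± 0.15 (SE; adjusted p = 0.0166) against wt proB and 0.72 ± 0.14 (adjusted p = 0.00995) against dHet proB.

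The largest differences of the polymerase group belonged to Polr1b and Polr1a, the catalytic core subunits. Polr1b measured 28.9 and 28.1 FPKM in mouse 686, 17.4 and 15.8 in mouse 713, 21.6 and 23.5 in mouse 760, 1.70, 4.04 and 10.9 in dHet proB, with 6.74 and 5.72 in wt proB. No proB library reached the lowest leukemic one, but the dHet proB libraries were far apart. Its difference was 2.08 ± 0.48 against dHet proB (adjusted p = 0.0190) and 1.67 ± 0.54 against wt proB (adjusted p = 0.0664, not called). Polr1a followed with 1.65 ± 0.29 (adjusted p = 0.0078) and 1.05 ± 0.33 (adjusted p = 0.0598). Polr1e, a subunit of the polymerase's initiation-competent form, was at 9.24 ± 1.05 FPKM (SD, n = 3 mice), 3.57 ± 2.0 (n = 3 libraries) and 4.36 ± 1.18 (n = 2 libraries) in B-ALL, dHet proB and wt proB, and was called against dHet proB only.

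The factors that bring the polymerase to the rRNA genes differed less. Ubtf, which binds the rRNA gene promoter and body, was at 56.6 ± 11 FPKM in B-ALL, 35.7 ± 6.58 in dHet proB and 45.6 ± 3.92 in wt proB. It was called against dHet proB (0.65, adjusted p = 0.0439), a call kept in 2 of 8 fits that left out a mouse or library. Its B-ALL and wt proB libraries overlapped. Rrn3, which joins the polymerase to the promoter complex, was at 43.2 ± 6.89, 33.5 ± 3.25 and 30.4 ± 6.97 and passed neither test. Taf1d, a subunit of that promoter complex, had the smallest difference of all 49 against wt proB. It measured 41.6 and 37.7 FPKM in mouse 686, 30.0 and 31.7 in mouse 713, 31 and 40.2 in mouse 760, 21.3, 21.5 and 25 in dHet proB, with 41.3 and 25.4 in wt proB. The 2 wt proB libraries spanned all the leukemic values but 1, and the difference of 0.11 ± 0.22 (adjusted p = 0.758) turned to -0.23 without wt proB library 2 and to -0.09 after rescaling to a common sum. Taf1d holds 8 annotated snoRNA genes within its bounds, and 21.3% of its exonic 50-base words recur in another gene, so its FPKM is less certain.

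The 3 core proteins of box C/D snoRNPs, which carry out 2'-O-methylation of rRNA, were all called higher against dHet proB (median 1.31), and 1 of them, Fbl, against wt proB (median of the 3, 1.08). Fbl, the fibrillarin methyltransferase, measured 305 and 316 FPKM in mouse 686, 245 and 235 in mouse 713, 297 and 293 in mouse 760, 67.3, 135 and 96.5 in dHet proB, with 130.2 and 109 in wt proB. The lowest leukemic library was well above the highest proB library. The difference was 1.23 ± 0.28 against wt proB (adjusted p = 0.0219) and 1.54 ± 0.25 against dHet proB (adjusted p = 0.00585). Of the scaffold proteins, Nop58 differed by 1.08 ± 0.33 against wt proB (adjusted p = 0.0548) and Nop56 by 0.87 ± 0.36 (adjusted p = 0.123), the smallest of the 3. Nop56 measured 64.2, 114 and 168 FPKM in dHet proB, with 159 and 134 in wt proB, below its leukemic range of 232 to 319. In Fbl 70.4% and in Nop56 37.6% of the 50-base words of the exons recur in other annotated genes, so reads may have been split between copies.

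Among the 5 genes of box H/ACA snoRNPs, which guide pseudouridylation, 2 were called higher against wt proB (median 1.25) and 4 against dHet proB (median 1.57). Nhp2, a core RNA-binding protein, measured 393 and 423 FPKM in mouse 686, 322 and 307 in mouse 713, 358 and 276 in mouse 760, 74.6, 150.0 and 135 in dHet proB, with 124 and 120.2 in wt proB. The groups were clearly apart, and the difference was 1.48 ± 0.29 against wt proB (adjusted p = 0.0129) and 1.57 ± 0.26 against dHet proB (adjusted p = 0.00634). Dkc1, the pseudouridine synthase, measured 189.8 and 171 FPKM in mouse 686, 115 and 113 in mouse 713, 161 and 153 in mouse 760, 25.4, 53.7 and 76.8 in dHet proB, with 54.7 and 52.7 in wt proB. It was called against wt proB at 1.44 ± 0.41 (adjusted p = 0.0462) and against dHet proB at 1.62 ± 0.37 (adjusted p = 0.0174). The wt proB call is close to the threshold and was kept in 12 of 21 other settings.

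Nop10, the smallest subunit of the complex, was at 424 ± 115 FPKM in B-ALL, 156 ± 41.8 in dHet proB and 219 ± 40.4 in wt proB, with differences of 1.43 ± 0.27 against dHet proB (adjusted p = 0.00928) and 0.92 ± 0.30 against wt proB (adjusted p = 0.0676). Nolc1, a chaperone of snoRNPs, had differences of 1.65 and 1.25 and was called against dHet proB only. Gar1 was the only one of the 49 whose libraries from a single mouse differed by 2-fold or more. In mouse 686 it measured 106 FPKM in library 1 and 319.6 in library 2, beside 159 and 209 in mouse 713 and, for mouse 760, 276 and 234. It measured 49.6, 134 and 119 in dHet proB, with 85.5 and 105 in wt proB, so library 1 of mouse 686 lay among the proB values, and Gar1 passed neither test.

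The 5 abundant or multifunctional nucleolar proteins held the largest difference against wt proB and the gene that varied most among the mice. Of them, 3 were called against wt proB (median 1.36) and 4 against dHet proB (median 1.79). Mybbp1a, a nucleolar MYB-binding protein that takes part in rRNA transcription and processing, measured 128 and 116 FPKM in mouse 686, 85.4 and 79.2 in mouse 713, 109.9 and 105 in mouse 760, 12.1, 24.6 and 28.7 in dHet proB, with 27.2 and 24.9 in wt proB. Its lowest leukemic library was over 2-fold above its highest proB library. The difference against wt proB, 1.94 ± 0.34 (adjusted p = 0.00800), was the largest of the 49, and that against dHet proB was 2.27 ± 0.30 (adjusted p = 0.00293).

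Npm1, the histone-binding chaperone nucleophosmin, had the highest FPKM of the 49. It measured 1446 and 1360.2 FPKM in mouse 686, 818 and 807 in mouse 713, 1155 and 1104 in mouse 760, 435, 545 and 386 in dHet proB, with 483 and 369 in wt proB. All leukemic libraries exceeded all proB libraries, by 1.36 ± 0.28 against wt proB (adjusted p = 0.0143) and 1.27 ± 0.25 against dHet proB (adjusted p = 0.0104). Other annotated genes share 40.9% of its 50-base words. Gnl3, the GTPase nucleostemin, was at 87.4 ± 22.1, 22.6 ± 19.0 and 23.4 ± 5.31 FPKM in B-ALL, dHet proB and wt proB. Its difference was 2.22 ± 0.56 against dHet proB (adjusted p = 0.0254) and 1.84 ± 0.63 against wt proB (adjusted p = 0.0779, not called). Ddx21, an RNA helicase of rRNA transcription and processing, was called in both, at 1.34 and 1.79.

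Ncl, the abundant nucleolar RNA-binding protein nucleolin, went apart from the others. It measured 305 and 272 FPKM in mouse 686, 193 and 185 in mouse 713, 98.3 and 111 in mouse 760, 63.9, 105 and 104 in dHet proB, with 100.4 and 82.4 in wt proB. One library of mouse 760 thus lay within the proB range and the other just above it, and Ncl passed neither test, with differences of 0.97 ± 0.41 (adjusted p = 0.132) and 1.00 ± 0.36 (adjusted p = 0.0773). Without mouse 760 it was called in both, at 1.35 (adjusted p = 0.0316) and 1.39 (adjusted p = 0.0190).

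Of 15 factors of the small subunit, 9 were called higher against wt proB (median 1.14) and 12 against dHet proB (median 1.10). Rrp12, which takes part in late maturation and export of subunits, measured 29.3 and 24.4 FPKM in mouse 686, 20.0 and 16.1 in mouse 713, 21.4 and 22.9 in mouse 760, 2.16, 5.60 and 7.88 in dHet proB, with 6.58 and 5.62 in wt proB. The difference was 1.70 ± 0.40 against wt proB (adjusted p = 0.0255) and 2.01 ± 0.36 against dHet proB (adjusted p = 0.00804). Tsr1, a GTPase-like factor of late small subunit particles, measured 56.6 and 50.0 FPKM in mouse 686, 45.5 and 43.0 in mouse 713, 49.5 and 46.2 in mouse 760, 9.80, 16.4 and 27.5 in dHet proB, with 16.3 and 14.9 in wt proB. The difference was 1.57 ± 0.35 (adjusted p = 0.0204) and 1.49 ± 0.31 (adjusted p = 0.0133). Srr overlaps 32.3% of the exonic bases of Tsr1 on the opposite strand, and whether counting used the strand is not given in the sources used here. Srr itself was at 2.41 FPKM in B-ALL, 4.98 in dHet proB and 4.26 in wt proB. The part of the overlap in the FPKM of either gene was not tested.

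Early factors of the small subunit that were called in both comparisons were Wdr43, Utp20, Heatr1, Nop14, Noc4l and Imp4, with differences against wt proB from 0.74 (Imp4) to 1.50 (Wdr43). Pno1, the RNA-binding partner of the endonuclease Nob1, was also called in both, at 1.14 and 1.27. Nob1 makes the last cut at the end of the small subunit rRNA. Its level was 89.8 ± 11, 44.3 ± 22.1 and 40.5 ± 5.62 FPKM in B-ALL, dHet proB and wt proB. It was called against dHet proB only (adjusted p = 0.0336, beside 0.0539 against wt proB). That call was kept in 1 of 8 fits that left out a mouse or library. Rrp9, a protein of the U3 snoRNP, had differences of 1.27 and 1.70 and was likewise called against dHet proB only. Wdr75, a factor that links transcription and processing, measured 12.6, 15.8 and 42.3 FPKM in dHet proB. Its dHet proB library 3 lay within the leukemic range of 36.6 to 48.6, and it was not called.

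Bysl, a factor of late small subunit particles, had the smallest difference of the small subunit group against wt proB. It measured 32.7 and 29.6 FPKM in mouse 686, 24.7 and 24.4 in mouse 713, 24.2 and 21.6 in mouse 760, 9.04, 15.5 and 18.2 in dHet proB, with 19.6 and 19.1 in wt proB. The leukemic and wt proB libraries did not overlap, but the lowest leukemic value was near the wt proB values, and the difference of 0.41 ± 0.28 did not pass (adjusted p = 0.336). Against dHet proB it was called at 0.88 ± 0.25 (adjusted p = 0.0376), a call kept in 1 of 8 fits that left out a mouse or library, the one without dHet proB library 3. Its adjusted p in the other fits ran from 0.0526 without dHet proB library 2 to 0.126 without mouse 686. Ccnd3 overlaps 9.37% of its exonic bases on the opposite strand. The GTPase Bms1 (0.53 and 0.55) and the helicase Ddx10 (0.76 and 0.61) passed neither test.

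The 14 measured factors of the large subunit were all called higher against dHet proB (median 1.31), and 10 of them against wt proB (median 1.18). Rrp1b, a nucleolar factor of large subunit processing, measured 39.1 and 38.7 FPKM in mouse 686, 26 and 24.7 in mouse 713, 28.1 and 28.2 in mouse 760, 2.75, 4.54 and 11.4 in dHet proB, with 8.34 and 8.13 in wt proB. Its difference against dHet proB, 2.30 ± 0.40 (adjusted p = 0.00741), was the largest of the 49, and that against wt proB was 1.76 ± 0.45 (adjusted p = 0.0323). Nop16, a nucleolar factor of the same pathway, measured 143 and 146 FPKM in mouse 686, 116 and 111 in mouse 713, 122 and 101 in mouse 760, 20.0, 34.4 and 52.8 in dHet proB, with 37.2 and 40.7 in wt proB. All leukemic libraries were above all proB libraries, by 1.63 ± 0.35 (adjusted p = 0.0174) and 1.85 ± 0.31 (adjusted p = 0.00644). Noc3l had the smallest difference of the group against wt proB. It measured 11.8 and 10.7 FPKM in mouse 686, 9.04 and 7.50 in mouse 713, 9.91 and 9.61 in mouse 760, 3.26, 4.10 and 6.44 in dHet proB, with 5.91 and 5.49 in wt proB, with a difference of 0.67 ± 0.26 (adjusted p = 0.110).

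Pes1, Bop1 and Wdr12, which form a complex needed for processing of the large subunit rRNA, were called in both comparisons. Pes1 was at 93.3 ± 5.70 FPKM in B-ALL, 49.2 ± 9.54 in dHet proB and 43.1 ± 2.01 in wt proB. Bop1 was at 66.7 ± 9.11, 21.2 ± 11.1 and 25.1 ± 2.29. Wdr12 was at 59.4 ± 4.48, 35.3 ± 10.7 and 20.5 ± 0.369, and it was the one gene of the 49 whose dHet proB libraries (34.3, 25.2 and 46.6) all exceeded the wt proB libraries (20.2 and 20.8). Nip7, which acts in maturation of the large subunit rRNA, had the smallest adjusted p of the 49 against wt proB (1.21 ± 0.18, adjusted p = 0.00424). Mrto4, a placeholder for the stalk of the large subunit, had 1.11 and 1.41, and Grwd1, a chaperone of a ribosomal protein, 1.51 and 1.89. Both were called in both comparisons, as were Ddx18 and Wdr74. Other annotated genes share 62.7% of the 50-base words of Ddx18, 25.3% of those of Mrto4 and 21.0% of those of Pes1. The FPKM of these genes is therefore less certain. Nop2, an rRNA methyltransferase, ranged from 69.9 to 84.4 FPKM in the leukemias and differed by 1.83 ± 0.41 against dHet proB (adjusted p = 0.0166) and 1.31 ± 0.46 against wt proB (adjusted p = 0.0839). Ppan and Rrs1 were likewise called against dHet proB only. The dHet proB calls of Wdr12 and Rrs1 were each kept in 2 of 8 fits that left out a mouse or library.

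The promoters of these genes are shown for a motif that MYC and other E-box factors bind. The list was chosen as a classic growth program under MYC, so its share of this motif is not independent of that choice. RefSeq promoter windows of build GRCm38.p6, from 250 bases before to 50 bases after the start site, matched 44 of the 49. The letters CACGTG, which read the same on both strands, were in 10 of the 44 windows (22.7%), in 12.1% of the windows of the genes tested and in 8.09% of all windows in the table. The sites follow with up to 12 bases on either side, 5′ to 3′ on the gene's strand, with the E-box in capitals. Rrn3 holds 2.
Mybbp1a: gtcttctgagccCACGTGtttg
Tsr1: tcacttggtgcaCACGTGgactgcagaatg
Grwd1: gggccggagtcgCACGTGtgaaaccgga
Wdr43: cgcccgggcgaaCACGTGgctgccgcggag
Nop2: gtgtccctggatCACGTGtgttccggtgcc
Utp20: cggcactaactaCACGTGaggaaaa
Pno1: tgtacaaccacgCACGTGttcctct
Pes1: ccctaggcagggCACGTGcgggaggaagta
Imp4: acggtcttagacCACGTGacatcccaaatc
Rrn3, distal: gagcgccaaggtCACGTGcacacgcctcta
Rrn3, proximal: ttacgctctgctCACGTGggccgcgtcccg
The stretches lie at chr11:72441355-72441376 (Mybbp1a, plus strand), chr11:74898092-74898121 (Tsr1, plus), chr7:45830740-45830767 (Grwd1, minus), chr17:71616220-71616249 (Wdr43, plus), chr6:125131811-125131840 (Nop2, plus), chr10:88826765-88826789 (Utp20, minus), chr11:17211540-17211564 (Pno1, minus), chr11:3963965-3963994 (Pes1, plus), chr1:34439696-34439725 (Imp4, plus), and chr16:13780472-13780501 and chr16:13780639-13780668 (Rrn3, plus).

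The 10 genes with the motif included the top of the list, Mybbp1a, and one near the bottom, Rrn3. Counted from the first transcribed base as 1, the motif began at 3 in Pes1, 18 in Wdr43, 25 in Tsr1, 35 in Grwd1, 38 in both Pno1 and Utp20 and 41 in Mybbp1a, and it began 48 and 215 bases before the start in Rrn3, 60 before it in Nop2 and 121 before it in Imp4. The genes with the motif had a median of 1.23 against wt proB (8 of 10 called) and 1.38 against dHet proB (9 of 10 called). The 34 windows without it belonged to genes with medians of 1.12 (14 called) and 1.22 (28 called), slightly below the medians of those with it. The ETS core CCGGAAG, searched on both strands and unable to overlap the E-box letters, was in 16 of the 44 windows (36.4%), in 21.9% of the windows of genes tested and in 9.93% of all windows. A match describes letters only. The upstream stretch of Nop2, chr6:125131633-125131882 on the plus strand of GRCm38.p6, is printed whole as an example with both kinds of letters, the E-box in capitals.
Nop2 upstream: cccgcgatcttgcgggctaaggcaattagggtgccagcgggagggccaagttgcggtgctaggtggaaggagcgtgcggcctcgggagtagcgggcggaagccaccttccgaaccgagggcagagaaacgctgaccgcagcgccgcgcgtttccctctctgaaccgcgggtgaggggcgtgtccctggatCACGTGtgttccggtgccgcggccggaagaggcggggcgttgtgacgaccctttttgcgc

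A second shared feature was the snoRNA genes inside the introns or exons of these genes. In GENCODE M21, 9 of the 49 (18.4%) hold at least 1 annotated snoRNA gene, beside 1.73% of the coding genes tested. The hosts are Taf1d, Nop56, Nop58, Gnl3, Ncl, Wdr43, Ppan, Tsr1 and Dkc1. Their medians were 1.13 against wt proB (3 of 9 called) and 1.47 against dHet proB (7 of 9 called). The 40 without had 1.14 (23 called) and 1.25 (35 called), so the medians were close against wt proB, where a smaller share of hosts was called, and the median of the hosts was higher against dHet proB. The difference was not tested.

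Between dHet proB and wt proB cells, none of the 49 genes passed in either direction by limma, where 2.18% of all genes were called higher and 6.5% lower. At an unadjusted p under 0.05, 1 was higher (Wdr12) and none lower. The median difference was -0.22, beside -0.04 over all genes, with 35 genes negative and 14 positive, and the libraries were apart for 1 higher (18.9% of all genes) and 3 lower (24.1%), namely Ubtf, Taf1d and Bysl. The direction was not stable: without dHet proB library 1 the median was 0.10 with 33 of 49 positive, and without library 3 it was -0.42 with 7 positive. The widest 95% intervals of single genes ran as low as -1.83 and as high as 1.28, so changes of 2-fold were within reach of the error for some genes.

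The spread among the dHet proB libraries was shared by most of the genes. The highest dHet proB library exceeded the lowest by a median of 2.26-fold, beside 1.15-fold between the 2 wt proB libraries and 1.33-fold among the 3 mice. On the log2(FPKM + 1) scale the median range over the dHet proB libraries was 1.07 for the 49 genes and 0.48 for all genes tested, while in the wt proB libraries it was 0.19 and 0.17 and among the mice 0.41 and 0.42. In 37 of the 49, library 3 was highest and library 1 lowest, an order that 15.1% of all genes tested showed. Library 1 lay below both wt proB libraries in 41 of the 49 and library 3 above both in 38. The share of all genes with these positions was not counted, so these counts have no background beside them. Gnl3 spanned the most, 6.64-fold (6.56, 17.8 and 43.6 FPKM), followed by Polr1b at 6.39-fold and Rrp1b at 4.14-fold. Polr1c (1.17-fold), Taf1d (1.17-fold), Imp4 (1.21-fold) and Rrn3 (1.22-fold) spanned least.

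Other measures moved with that order or against it. Myc measured 9.39, 42.3 and 290.1 FPKM in dHet proB libraries 1, 2 and 3, 445 and 417 in mouse 686, 209 and 203 in mouse 713, 367 and 409.8 in mouse 760, and 82.5 and 68.4 in wt proB, and was not called in any of the 3 comparisons. Among the dHet proB libraries Myc and most of the 49 genes thus had the same order, and among the mice both were lowest in mouse 713. A list of 11 genes, MYC and its partners, mostly went the other way in B-ALL. Against wt proB 8 were negative and 3 positive (median -0.31), and against dHet proB 9 and 2 (median -0.28). In each comparison 2 of the 11 were called lower and 0 higher, where 10% and 11% of all genes were called lower. The summed FPKM of 20 proliferation genes was 3400, 5635 and 1654 in dHet proB libraries 1, 2 and 3, lowest where the ribosome biogenesis genes were highest. It was 2918 to 3718 in B-ALL and 3709 to 3712 in wt proB, with none of the 20 at 0 and none called in any comparison by limma. The source name of dHet proB library 3 gives another replicate number than its title. The part of these measures in the spread was not tested.

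**Figure D3:**
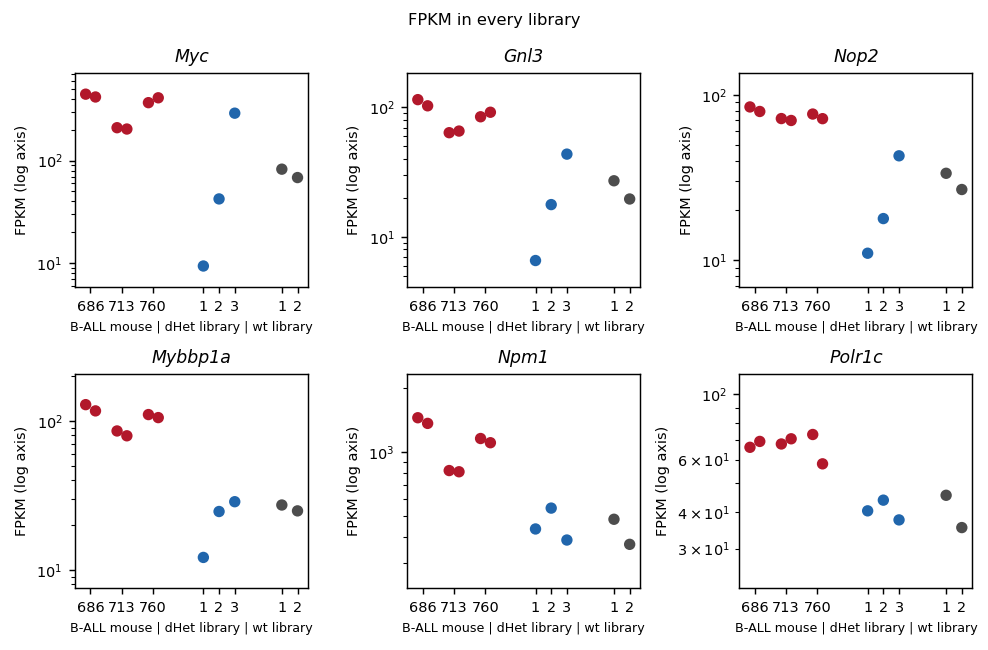
FPKM on a log axis in every library for Myc and 5 of the ribosome biogenesis genes; red points are the 2 libraries of each B-ALL mouse, blue points dHet proB libraries 1 to 3 and grey points wt proB libraries 1 and 2. In Gnl3, Nop2 and Mybbp1a dHet proB library 3 is highest and library 1 lowest, as for Myc, while in Npm1 and Polr1c library 2 is highest, and the leukemic points lie above all proB points except for Myc.

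Among the 3 leukemias the genes kept a common order of small differences. Mouse 686 had the highest mean for 44 of the 49 (30.8% of all genes tested) and mouse 713 the lowest for 38 (39.6%). The ratio of the highest to the lowest mouse had a median of 1.33 and ranged from 1.06 to 2.76. In an F test of the mice against the spread between libraries, 3 of the 49 passed, where 22.3% of the 11293 genes tested passed. With the B-ALL libraries alone, whose spread is smaller, 29 of the 49 passed, where 47.7% of all genes did.

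The 3 genes were Ncl, Npm1 and Imp4. Ncl (adjusted p = 0.00492) was 1.46 higher in mouse 686 than in mouse 760 on the log2 scale, and mouse 760 was its lowest, unlike most of the list. Npm1 (adjusted p = 0.0479) was 0.79 higher in mouse 686 than in mouse 713, and Imp4 (adjusted p = 0.0227) 0.61 higher. Npm1 lost the call without any one of the 6 B-ALL libraries, Imp4 without either library of mouse 686 or mouse 713, and Ncl passed in all 6 of these fits. Imp4, a protein of the U3 snoRNP, measured 99.6 and 98.9 FPKM in mouse 686, 65.4 and 63.7 in mouse 713 and, for mouse 760, 83.8 and 73.5.

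**Figure D4:**
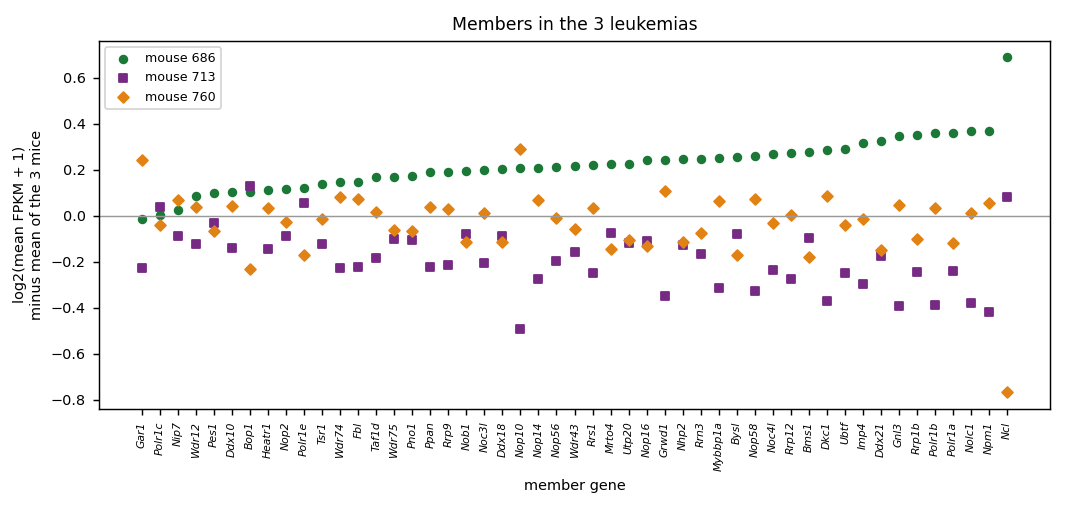
For each ribosome biogenesis gene, the vertical axis gives the log2(mean FPKM + 1) of each B-ALL mouse minus the mean of the 3 mice, and genes are ordered by mouse 686. Mouse 686 (green circles) is highest for 44 of 49 genes and mouse 713 (purple squares) lowest for 38, and Ncl at far right has the widest range, with mouse 760 (orange diamonds) lowest.

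Other genes of the pathway had smaller medians in the same direction. Of 122 tested among 123 further ribosome biogenesis genes, 39 (32.0%) were called higher and 1 lower in B-ALL against wt proB (median 0.56). Against dHet proB 64 (52.5%) were called higher and 1 lower (median 0.64). Over all genes 8.15% and 14.5% were called higher. None of the 122 was called between dHet proB and wt proB by limma (median -0.08, with 1 higher and 5 lower at an unadjusted p under 0.05). The 39 became 0 by limma without wt proB library 1 or 2 (53 and 40 higher at an unadjusted p under 0.05), 5 without mouse 686, 14 without mouse 760 and 11 after rescaling to TPM, and the 64 became 30 without mouse 686, 31 without dHet proB library 1 and 39 after rescaling. Fewer of all genes were also called in these fits. Against wt proB 373 of 10990 were called higher without mouse 686, 638 of 11014 without mouse 760 and 529 of 11771 after rescaling. Against dHet proB it was 810 of 10990 without mouse 686, 811 of 11041 without dHet proB library 1 and 1124 of 11771 after rescaling. The gene with the largest rise against wt proB was Nle1, a large subunit factor, at 60.1 ± 11.7 FPKM in B-ALL and 16.4 ± 0.193 in wt proB (1.79 ± 0.40, adjusted p = 0.0205). Nat10, the rRNA acetyltransferase, rose most against dHet proB (18.4 ± 4.43 and 4.01 ± 1.25 FPKM; 1.96 ± 0.30, adjusted p = 0.00462). The one that fell was Znrd1, a small subunit of RNA polymerase I, at 25.3 ± 5.19 FPKM in B-ALL, 42.2 ± 5.96 in dHet proB and 56.8 ± 2.74 in wt proB. It fell by 1.16 against wt proB (adjusted p = 0.00775) and by 0.73 against dHet proB (adjusted p = 0.0228), while the polymerase subunits Polr1a, Polr1b, Polr1c and Polr1e had positive differences. Cd3eap, another polymerase I subunit, rose in both, at 1.40 and 1.46.

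Ribosomal proteins, the cargo of the pathway, showed another pattern over the groups. Of 78 cytosolic ribosomal proteins, 36 (46.2%, beside 8.15% of all genes) were called higher against wt proB (median 0.81), and 9 (11.5%, below the 14.5% of all genes) against dHet proB (median 0.25). Between the proB groups 3 (3.85%, beside 2.18% of all genes) were called higher in dHet proB (median 0.47). The summed FPKM of the 78 was 52748, 47505 and 42756 in dHet proB libraries 1, 2 and 3. It was 40281 and 26001 in wt proB libraries 1 and 2, so the wt proB libraries were far apart here and library 1 was near dHet proB library 3. The 36 became 0 by limma without wt proB library 2 (28 at an unadjusted p under 0.05), 21 without wt proB library 1, 3 without mouse 686, 9 without mouse 760, 19 without dHet proB library 1 and 12 after quantile normalization, and the 9 fell to between 2 and 8 in the leave-outs. Fewer of all genes were also called higher against wt proB in these fits. It was 373 of 10990 without mouse 686 and 638 of 11014 without mouse 760. It was 789 of 11041 without dHet proB library 1 and 899 of 11074 after quantile normalization. Against dHet proB between 810 and 1664 of all genes were called higher in the leave-outs. Rpl12 was higher in B-ALL against both (1.35 and 1.10), while Rps12 was higher against wt proB (1.12, adjusted p = 0.00554) and also in dHet proB against wt proB (0.91, adjusted p = 0.0182). The ribosome biogenesis genes had the larger median against dHet proB (1.27 beside 1.14), and the cytosolic ribosomal proteins against wt proB. The difference between the lists was not tested. Of 77 mitochondrial ribosomal proteins, 16 (20.8%) were called higher against wt proB (median 0.40) and 24 (31.2%) against dHet proB (median 0.34). Over all genes these shares were 8.15% and 14.5%. None of the 77 was called between the proB groups by limma (4 higher and 0 lower at an unadjusted p under 0.05). Of all genes, 529 of 11771 were called higher against wt proB after rescaling. Against dHet proB it was 810 of 10990 without mouse 686 and 811 of 11041 without dHet proB library 1. The 16 became 0 by limma without wt proB library 1 or 2 (18 at an unadjusted p under 0.05 in each), 3 without mouse 686, 8 without mouse 760 and 5 after rescaling, and the 24 became 10 without mouse 686 or dHet proB library 1.

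**Figure D5:**
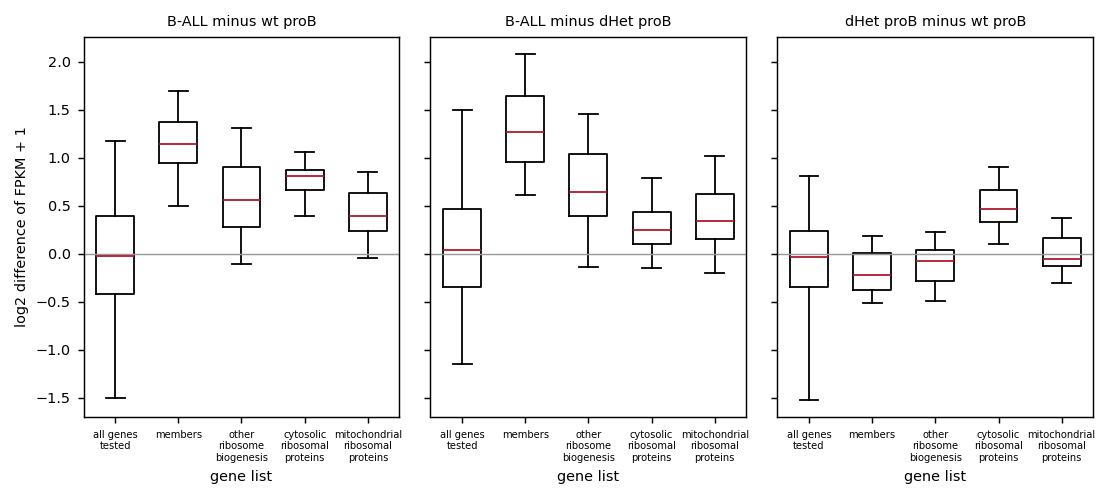
Boxes show the log2 difference of FPKM + 1 for all genes tested, the 49 ribosome biogenesis genes (members), 122 other ribosome biogenesis genes, 78 cytosolic and 77 mitochondrial ribosomal proteins in the 3 comparisons; boxes span the quartiles with the median in red and whiskers the 5th to 95th percentile. The ribosome biogenesis genes have the highest medians in both B-ALL comparisons, 1.14 and 1.27, and a median of -0.22 in dHet proB against wt proB.

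The libraries differed in more than these genes. FPKM sums ran from 505261 to 638953, and rescaling to a common sum moved the median of all genes to -0.22 against wt proB and -0.12 against dHet proB. The share of called genes that were higher then fell from 44.9% to 23.8% and from 57.0% to 38.8%, and quantile normalization gave 46.3% in the latter. The median of the 49 stood 1.18 and 1.25 above that of all genes after rescaling, beside 1.17 and 1.23 before it. Ebf1 was at 151 to 212 FPKM in B-ALL, 283 to 369 in dHet proB, with 297 and 542 in wt proB, Pax5 at 35.3 to 52.8, 70.9 to 99.0 and 101 and 57.2, and Rag2 transcript was listed in all Rag2-/- libraries at 8.57 to 12.6. All 13 proB markers were above 0 in every group, with sums of 6708 to 9901 in B-ALL, 9122 to 11531 in dHet proB and 7759 to 8139 in wt proB. The wt proB libraries held all 8 plasmacytoid dendritic cell markers (summed FPKM 738 to 1113, beside 109 to 314 in B-ALL and 137 to 147 in dHet proB, where Siglech, Klk1 and Cd300c were at 0) and all 12 neutrophil and myeloid markers (546 to 569, beside 29.5 to 264 and 14.6 to 51.9, Elane and Mpo at 0 in dHet proB). The 15 stress and early response genes summed to 3021 to 3894 in wt proB, 493 to 711 in B-ALL and 631 to 1160 in dHet proB, and T and NK cell markers to 102 to 335 in B-ALL, 58.6 to 66.6 in wt proB and 46.1 to 64.4 in dHet proB. Red cell and megakaryocyte markers summed to 8.44 to 516 in B-ALL. The 13 stromal and endothelial markers summed to 83.9, 42.9 and 48.1 in dHet proB libraries 1, 2 and 3. Their sums were 21.2 to 49.6 in B-ALL and 63.4 to 68.7 in wt proB. The part of these cells and genes in the differences of the ribosome biogenesis genes, or in the spread of the dHet proB libraries, was not tested.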

How the data were processed

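RNA sequencing of 11 mouse libraries was used. Per the submitters' processing notes, the tools were bcl2fastq (0.3.1 and 2.20.0.422), STAR 2.5.3a, Cuffdiff, and version 2.2.1 of both Cufflinks and Cuffnorm, on build mm9. The authors deposited 1 table of FPKM per library; annotation and Cuffnorm scaling were not given in the sources used here. Depth is unknown: the FPKM low values are not whole multiples of 1 read, so no counting error is given.

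FPKM was transformed to log2(FPKM + 1). The 2 libraries of a mouse were averaged on that scale, and limma 3.58.1 (R 4.3.3, statmod 1.5.0; trend, two-sided, Benjamini-Hochberg, threshold 0.05) was fitted to 8 units in 3 groups, with genes of FPKM 1 or more in at least 2 units. The pseudocount of 1 shrinks changes of low genes. The mice were compared by limma's F test on the 11 libraries in 5 groups, whose error is the spread of libraries, not of animals. Scripts were tested on simulated data.

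The 50 genes and the lists were chosen with earlier results of these data known. Full statistics were given, per role, to up to 2 called genes with the largest difference against wt proB and to the one with the smallest, and to the genes past the F test; other genes were chosen after their values were seen. Promoter windows came from RefSeq (GRCm38.p6), and snoRNA genes, exon overlaps and shared 50-base words from GENCODE M21, builds other than that of the tables. Same-numbered libraries deviated together between the B-ALL mice but not across to the proB groups. Alternatives covered pseudocount, filter, scaling, left-out units, library handling, a replicate block and the model.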

Additional observations from a re-analysis of the deposited data

How the results depend on the processing

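All 49 genes were positive in B-ALL against dHet proB in each of 21 alternative settings, and 48 of 49 against wt proB. The medians moved by less than the spread between replicates (SD 0.35, pooled over the 3 groups). That SD includes the dHet proB libraries, whose medians were -0.70, -0.08 and 0.32. It is wide enough to hold a change of sign. The median of dHet proB against wt proB went from -0.22 to 0.10 without dHet proB library 1. The number called higher against wt proB, 26, was 16 without a filter on low values, 16 after rescaling to TPM, 40 with only the 2 groups compared, and 0 to 39 when 1 mouse or library was left out (0 without wt proB library 2, 1 without wt proB library 1, 7 without mouse 686, 15 without mouse 760). None of the 26 kept the call in all 8 leave-outs; of the 42 called against dHet proB, 22 did, and the count ran from 23 to 44. Between dHet proB and wt proB, 0 to 1 were called higher when a unit was left out. Among the mice, 29 passed with only the 6 B-ALL libraries and 1 to 2 with a library left out. With 1 wt proB library left, it is assumed to vary like the other groups. Against wt proB, fewer of all genes were also called higher without either wt proB library. Of all genes, 373 of 10990 were called higher without mouse 686 and 638 of 11014 without mouse 760. It was 724 of 17484 without a filter and 529 of 11771 after rescaling, beside 905 of 11110 in the main fit. The cause of these changes was not tested.

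Same-numbered libraries deviated together between the B-ALL mice. The correlation was 0.64 for mice 686 and 713, 0.20 for 713 and 760 and 0.13 for 686 and 760. The 2 libraries of a mouse deviate from their mean by equal and opposite amounts, so both library numbers give the same value. With a proB library in the pair the correlations ran from -0.13 to 0.11. With the replicate block, the same 3 genes passed among the mice, and 40 were called higher against wt proB (36 in the same fit of 11 libraries without the block), 43 against dHet proB and 2 lower in dHet proB against wt proB, and Tsr1 turned to -0.28 there.

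Over these settings 30 of the 49 genes took both signs in dHet proB against wt proB, and 1, Taf1d, in B-ALL against wt proB. The values of those with full statistics follow. Taf1d in B-ALL against wt proB was -0.089 after rescaling to TPM and -0.23 to 0.45 over the leave-outs, negative without wt proB 2. In dHet proB against wt proB, where none was called, Polr1c was -0.011 (TPM) and -0.16 to 0.19 over the leave-outs, with -0.043 without dHet proB 2. Npm1 was -0.00275 after quantile normalization and -0.10 to 0.29 over the leave-outs, with -0.042 without dHet proB 2; both were lowest without wt proB 2. The leave-out ranges were -0.28 to 0.22 for Nhp2, -0.52 to 0.25 for Dkc1, -0.56 to 0.029 for Mybbp1a, -0.18 to 0.20 for Ncl, -0.63 to 0.11 for Rrp12 and -0.55 to 0.13 for Nop16, each highest without dHet proB 1, and -0.28 to 0.42 for Tsr1, lowest without dHet proB 3. Ncl was also positive, 0.11, without wt proB 1. The cause was not tested. Leaving out library 1 of mouse 686, chosen after seeing its Gar1 value, gave 25 called against wt proB and 43 against dHet proB. With the depth unknown, the precision of low values is unknown too.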
